A study of Mus musculus with 9 samples.

Results

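Pentraxin 3 and 8 complement genes were followed in bone marrow-derived macrophages, 9 of the 24445 genes listed. The set held Ptx3, the convertase genes C3, Cfb and Cfp, the C1q chains C1qa, C1qb and C1qc, the protease C1ra and the inhibitor Serping1. For each gene the RefSeq transcript with most counts was taken. Ptx3 was picked on its fall with the ester described here, so its values are given as a description and carry no test. Macrophages of strain C57Bl/6 were profiled in 9 RNA sequencing libraries, in 3 groups of 3, and the labels give no genotype difference between the groups. Each culture was treated for 1 h and then for 24 h. In Veh_N both treatments were vehicle. In Veh_LPS vehicle was followed by LPS, the lipopolysaccharide of Gram-negative bacteria, and in D2HG_LPS the D2HG octyl ester was followed by LPS. D2HG stands for D-2-hydroxyglutarate. It is a metabolite that resembles alpha-ketoglutarate, and an octyl ester is used to bring it into cells. No group had the ester without LPS or the octyl ester of another acid, and no dose is stated in these sources.

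Complement is a set of blood and tissue proteins that tag microbes and dying cells. C1q binds immune complexes and other surfaces and switches on the proteases C1r and C1s in the classical pathway, factor B (Cfb) joins C3b in the alternative pathway convertase that cleaves more C3, and properdin (Cfp) steadies that convertase. Serping1 encodes the C1 inhibitor, which blocks C1r and C1s. Pentraxin 3 is a secreted pattern recognition protein of the long pentraxin family that binds C1q and is made by myeloid and stromal cells after Toll-like receptor signals. The liver makes most of the C3 in plasma, whereas macrophages are a main source of C1q and properdin.

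RefSeq promoters (build GRCm38.p6) were matched by symbol for 6 of the 9 genes, namely Ptx3, C3, Cfp, C1qb, C1qc and C1ra. The 250 bases before the start are shown for Ptx3 and C3, which differed most between Veh_N and Veh_LPS among these 6, and for the neighbours C1qb and C1qc, which did not share that rise. They are read 5′ to 3′ on the gene's strand, with motif matches in capitals. Ptx3 is at chr3:66219637-66219886 on the plus strand, and C3 at chr17:57228137-57228386, C1qb at chr4:136886201-136886450 and C1qc at chr4:136892915-136893164 are on the minus strand. The start used for C1qc lies inside the outer limit of the gene.
Ptx3: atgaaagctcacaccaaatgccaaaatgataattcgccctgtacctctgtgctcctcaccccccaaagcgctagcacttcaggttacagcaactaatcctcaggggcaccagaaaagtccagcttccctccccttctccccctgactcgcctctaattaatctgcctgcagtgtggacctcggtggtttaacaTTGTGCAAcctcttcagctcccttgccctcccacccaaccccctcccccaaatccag
C3: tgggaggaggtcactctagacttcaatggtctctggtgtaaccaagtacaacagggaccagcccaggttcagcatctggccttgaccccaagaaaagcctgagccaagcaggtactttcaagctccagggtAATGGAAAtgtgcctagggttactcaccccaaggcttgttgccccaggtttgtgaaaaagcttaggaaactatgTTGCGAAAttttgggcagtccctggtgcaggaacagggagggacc
C1qb: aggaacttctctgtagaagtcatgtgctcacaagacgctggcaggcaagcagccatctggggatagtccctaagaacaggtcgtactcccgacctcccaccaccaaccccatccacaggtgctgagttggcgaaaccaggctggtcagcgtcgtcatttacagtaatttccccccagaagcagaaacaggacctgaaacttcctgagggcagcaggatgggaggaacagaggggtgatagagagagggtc
C1qc: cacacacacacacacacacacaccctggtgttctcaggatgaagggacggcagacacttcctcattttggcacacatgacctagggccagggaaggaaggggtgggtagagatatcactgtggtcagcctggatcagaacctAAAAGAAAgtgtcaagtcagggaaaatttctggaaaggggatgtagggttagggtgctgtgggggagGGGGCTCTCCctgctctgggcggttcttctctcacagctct
The search covered 5 motifs on both strands, and a match is a description of letters, not a bound site. They were the NF-kB site by name, the interferon regulatory factor core AANNGAAA, the C/EBP motif TTGCNNAA, the GAS motif TTCNNNGAA and the AP-1 motif TGANTCA. Ptx3 held a C/EBP match on the minus strand, 57 to 50 bases before the start. C3 held an interferon regulatory factor core 119 to 112 bases before the start and a C/EBP match 45 to 38 bases before it. C1qc held an interferon regulatory factor core at 108 to 101 bases and an NF-kB match at 41 to 32 bases before the start, and these matches did not overlap each other. C1qb, C1ra and Cfp held no match to the 5 motifs in this window. Among 32851 mouse promoters of the same length, 3.9% held the NF-kB motif, 21.3% the interferon regulatory factor core, 9.56% the C/EBP motif, 7.02% the GAS motif and 6.75% the AP-1 motif.

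The rows kept, the RefSeq transcript with most counts per gene, held 9451258 to 13759935 counts per library. Of the genes, 11622 were deep enough to test. Whether the 3 replicates of a group are different mice or cultures is not stated in the labels, so the spread behind each p-value may be technical. Of the macrophage markers 12 of 12 had counts in each group, with summed levels of 16027 to 18260 CPM in Veh_N, 14118 to 14676 in Veh_LPS and 14172 to 14968 in D2HG_LPS (CPM, a gene's counts relative to its library's TMM-scaled total). Lyz2 was the largest part of the macrophage sum, with means of 8547, 5336 and 5690 CPM in Veh_N, Veh_LPS and D2HG_LPS. Single macrophage markers moved both ways with LPS. Mean Csf1r was 1747 CPM in Veh_N and 654 in Veh_LPS, and mean Fcgr1 was 173 and 1297. Hepatocyte markers summed to at most 3.21 CPM in any library, with Alb, Apoa1, Ttr and Serpina1a at 0 counts throughout. Lymphocyte markers reached at most 2.22 CPM, and mast cell markers ran from 5.88 to 7.0 CPM in Veh_N, 0.849 to 1.19 in Veh_LPS and 0.293 to 1.02 in D2HG_LPS. The 10 neutrophil markers summed to 81.8 to 92.4 CPM in Veh_N, 233 to 255 in Veh_LPS and 184 to 206 in D2HG_LPS. Most of that was Csf3r, and Ly6g had 8, 3 and 1 counts in the 3 groups. The 12 stromal and endothelial markers summed to 210 to 231 CPM in Veh_N, 176 to 200 in Veh_LPS and 127 to 141 in D2HG_LPS. Most of that was Vwf and Kdr, which moved in opposite directions, and Lum and Pdgfra were at 0. In the same order of groups, mean Vwf was 208, 28.7 and 36.7 CPM and mean Kdr was 9.47, 140 and 77.3 CPM.

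Pentraxin 3 RNA was nearly absent without LPS, appeared with LPS and was lower when the ester came before LPS. Ptx3 had 1, 0 and 0 counts in the Veh_N libraries. It had 65, 53 and 79 counts in Veh_LPS, or 6.42, 5.62 and 6.91 CPM. In D2HG_LPS it had 12, 21 and 15 counts, or 1.17, 1.79 and 1.48 CPM. The 3 groups did not overlap, and each ester library lay below each Veh_LPS library. The mean went from 6.32 ± 0.651 CPM in Veh_LPS to 1.48 ± 0.311 CPM in D2HG_LPS (SD, n = 3), 23.4% of the Veh_LPS mean. In the fit of all genes this was a log2 fold change of -2.08 ± 0.25 (SE), and 8 of the 11622 tested genes had a lower one. Over the alternatives, each left-out library included, the value lay between -2.25 and -1.94. Summed counts gave a ratio of 0.235, with a 95% exact interval of 0.168 to 0.324 that covers counting error only. In this comparison 2.11% of all tested genes were called in either direction, and Ptx3 was chosen from among its changes, so nothing is read from that rate.

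The LPS contrast of Ptx3 rests on a single Veh_N count. Its log2 fold change of Veh_LPS over Veh_N was 7.58 ± 0.46, and 73 tested genes had a higher one. The ratio of summed counts was 281, with an exact interval of 49.8 to 11140 from counting alone. Leaving out Veh_N replicate 1, the library with that count, moved the fitted log2 fold change to 9.20, leaving out replicate 2 or 3 gave 7.06 and 7.23, and limma-voom gave 7.01. Libraries given ester and LPS stood above Veh_N with a count ratio of 66.0 (interval 11.3 to 2660). The gene lies within the span of Veph1 on chromosome 3, and Veph1 had 0 counts in the 9 libraries. Markers of dendritic cells, which are known to make pentraxin 3, summed to 2.49 to 4.86 CPM in Veh_N, 75.6 to 80.8 in Veh_LPS and 53.1 to 57.9 in D2HG_LPS. All 8 had counts, in the LPS groups mostly in Fscn1, the gene of the actin bundling protein fascin. Their part in the Ptx3 result was not tested, nor was that of the neutrophil and stromal markers above. In bulk RNA, fewer cells of a type and less RNA per cell cannot be told apart.

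**Figure D1:**
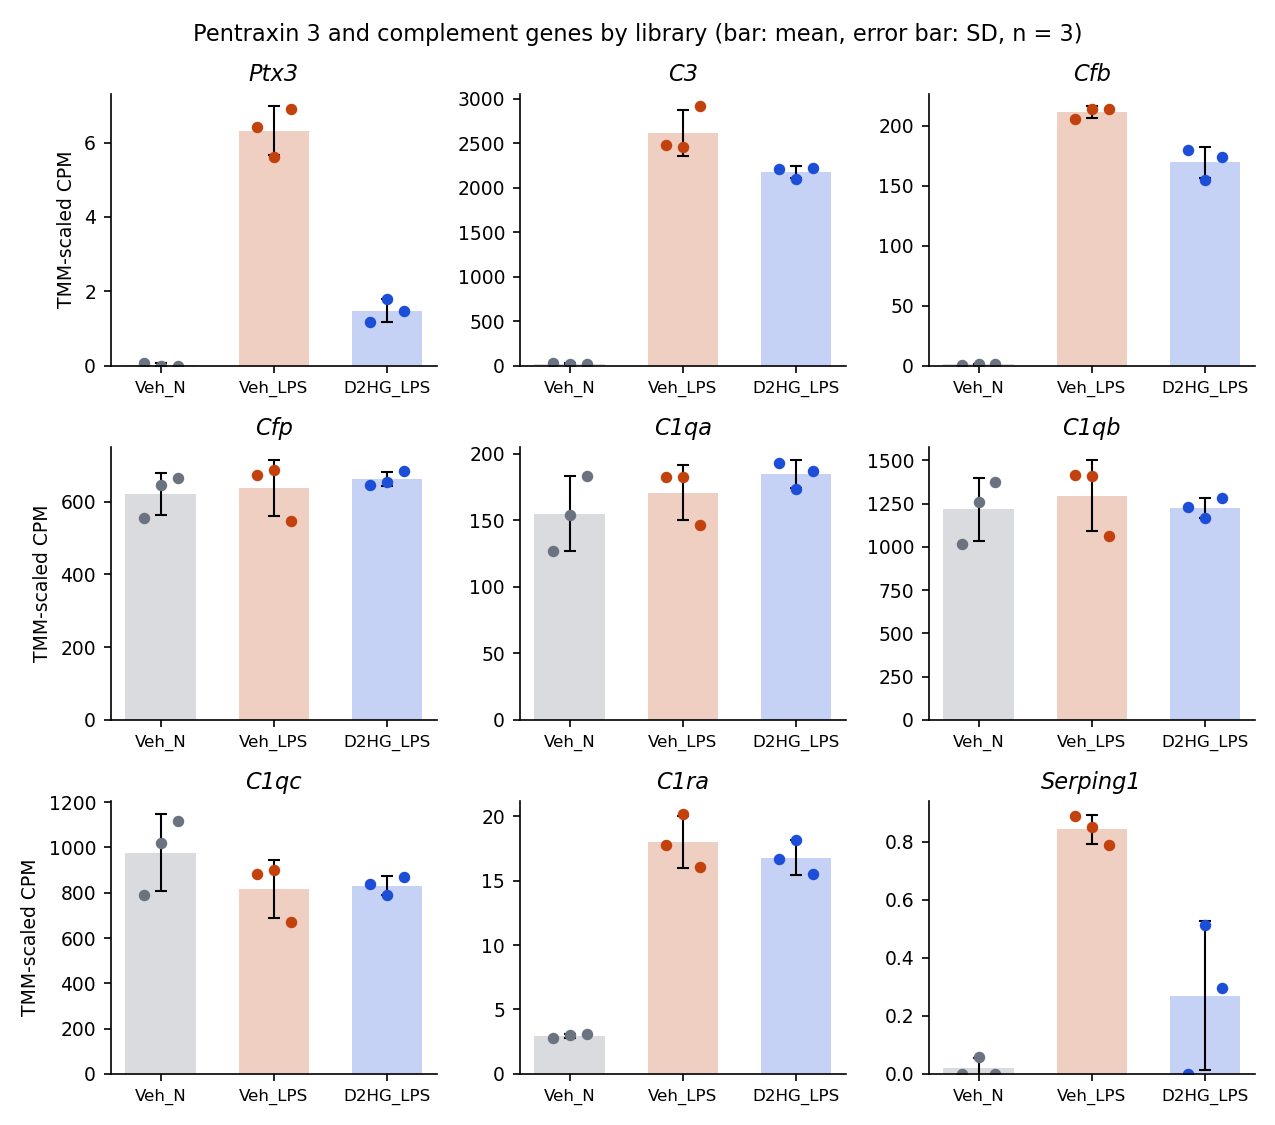
TMM-scaled CPM (y axes, each from 0) of the 9 genes in each library (points), with the group mean (bar) and SD (error bar, n = 3), for Veh_N, Veh_LPS and D2HG_LPS. Ptx3, C3, Cfb and C1ra are low in the 3 Veh_N libraries and higher in the Veh_LPS libraries, and Ptx3 lies at 1.17 to 1.79 CPM in D2HG_LPS against 5.62 to 6.91 in Veh_LPS.

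With LPS the central alternative pathway genes C3 and Cfb rose 103-fold and 155-fold, whereas the properdin gene Cfp did not pass the test. C3, whose product is cleaved by all 3 pathways of complement, stood at 32.4, 24.5 and 19.0 CPM in Veh_N. In Veh_LPS it stood at 2480, 2456 and 2914 CPM. Each LPS library lay far above each Veh_N library, and the log2 fold change was 6.69 ± 0.18 (edgeR, Benjamini-Hochberg adjusted p = 4.06e-12). Cfb rose from 1.03, 1.78 and 1.18 CPM to 206, 214 and 214 CPM, a log2 fold change of 7.27 ± 0.15 (edgeR adjusted p = 3.61e-13). The groups did not overlap for Cfb either, and 86 tested genes had a higher log2 fold change than Cfb and 118 than C3. Per kilobase of transcript, C3 was at 510 CPM and Cfb at 77.2 CPM in Veh_LPS, below C1qb and C1qc in the case of C3 and below C1qa in the case of Cfb.

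Cfb has close neighbours in the genome, with C2 87 bases away and Nelfe adjoining it. C2, which encodes the classical pathway counterpart of factor B, had 5 to 15 counts in Veh_N and 7 to 12 in Veh_LPS. Nelfe, a subunit of the negative elongation factor, had a mean of 35.8 CPM in Veh_N and 42.0 CPM in Veh_LPS. The C2 counts of the 2 groups overlap, and its log2 fold change was 0.69 ± 0.47 (edgeR adjusted p = 0.204). Without Veh_N replicate 3, which had 15 counts against 6 and 5 in the others of its group, C2 was called higher at 1.44 (adjusted p = 0.0108, range over the alternatives 0.0108 to 0.963).

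With the ester before LPS, neither C3 nor Cfb passed the edgeR test, though their D2HG_LPS libraries lay below those of Veh_LPS. How many of all tested genes separate in this way was not counted, so nothing is read from it. C3 stood at 2206, 2103 and 2221 CPM in D2HG_LPS, below the lowest Veh_LPS library. Its log2 fold change of D2HG_LPS over Veh_LPS was -0.27 ± 0.14, with a normal 95% interval of -0.53 to 0.00 and an adjusted p of 0.384. Cfb stood at 180, 155 and 174 CPM, again below each Veh_LPS library. Its log2 fold change was -0.32 ± 0.10, with an interval of -0.50 to -0.13 (edgeR adjusted p = 0.121). This is a difference of 1.25-fold. Cfb was called lower by DESeq2 (adjusted p = 0.00903), in the fit of only these 2 groups (0.0362) and without Veh_N replicate 1 (0.0425), and its adjusted p ran from 0.00903 to 0.341 over the alternatives. The ratio of C3 to Cfb counts was 11.5 to 13.6 in Veh_LPS and 12.3 to 13.5 in D2HG_LPS, ranges that overlap (exact permutation test, two-sided, p = 0.5). In Veh_N the ratio was 13.8 to 31.3, on 15 to 30 Cfb counts per library.

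Cfp was among the high genes in each group and did not pass the test in any comparison. It stood at 554, 644 and 664 CPM in Veh_N, at 674, 687 and 548 CPM in Veh_LPS and at 646, 655 and 683 CPM in D2HG_LPS. The 3 ranges overlap. The log2 fold change with LPS was 0.04 ± 0.10 (edgeR adjusted p = 0.759), and it turned to -0.29 under upper-quartile scaling and -0.63 with library totals alone, both called lower. With the ester it was 0.06 ± 0.10 (edgeR adjusted p = 0.833).

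The 3 chains of C1q were abundant with and without LPS, and none passed the test in either direction. C1qa stood at 127, 154 and 183 CPM in Veh_N, at 183, 182 and 147 CPM in Veh_LPS and at 193, 173 and 187 CPM in D2HG_LPS. C1qb stood at 1017, 1261 and 1376 CPM, at 1418, 1410 and 1062 CPM and at 1233, 1166 and 1281 CPM in the same order. C1qc stood at 790, 1021 and 1119 CPM, at 883, 900 and 671 CPM and at 837, 788 and 871 CPM. The ranges of Veh_N and Veh_LPS overlap for each chain. Veh_N replicate 1 was the lowest of its group for all 3 chains and for Cfp, as was Veh_LPS replicate 3, which was also the highest of its group for C3.

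The log2 fold change with LPS was 0.14 ± 0.13 for C1qa (edgeR adjusted p = 0.327), 0.09 ± 0.13 for C1qb (0.530) and -0.26 ± 0.13 for C1qc (0.0997). With library totals alone, these became -0.53, -0.58 and -0.92, and all 3 were called lower. Under upper-quartile scaling they became -0.18, -0.23 and -0.58, and C1qc was called. Single libraries also moved these calls. Without Veh_N replicate 3, C1qa was called higher at 0.28 (adjusted p = 0.0408, range over the alternatives 0.00201 to 0.889). Without Veh_N replicate 1, C1qc was called lower at -0.39 (adjusted p = 0.00529, range 3.45e-05 to 0.372). With the ester the changes were 0.11 ± 0.13 for C1qa (interval -0.13 to 0.36), -0.08 ± 0.13 for C1qb (-0.33 to 0.17) and 0.02 ± 0.13 for C1qc (-0.24 to 0.28), with edgeR adjusted p of 0.717, 0.808 and 0.956.

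**Figure D2:**
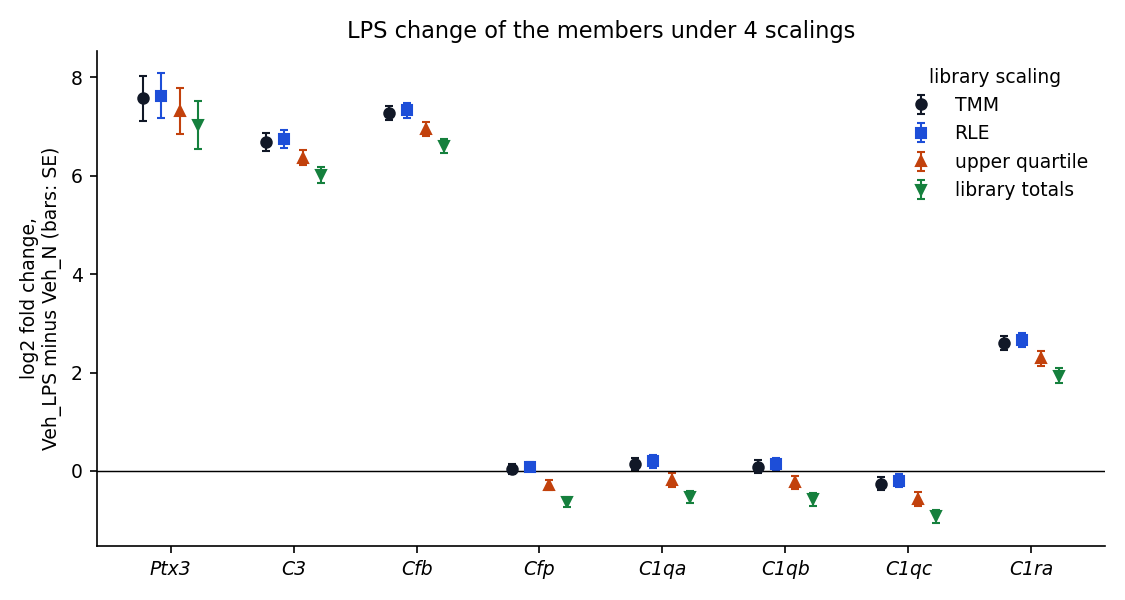
Log2 fold change of Veh_LPS over Veh_N (y axis, bars SE) for Ptx3 and the 7 tested complement genes under 4 ways of scaling the libraries (TMM, RLE, upper quartile, library totals). C3, Cfb, C1ra and Ptx3 lie above 0 under the 4 scalings, whereas Cfp, C1qa and C1qb lie above 0 with TMM and RLE and below 0 with upper-quartile scaling and library totals.

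The scalings also moved the other genes. Against TMM, upper-quartile scaling shifted the median of all tested genes by -0.32 and library totals by -0.67 in log2 fold change of Veh_LPS over Veh_N. The share of calls that were higher went from 47.4% to 33.2% and 21.8%. A quotient of counts within a library does not depend on the scaling.

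The shares of the 3 C1q chains, which assemble together into a single protein, are such quotients and lay apart between the groups. No ratio between chains could pass a test in this design, so the shares are given as a description. C1qc made up 40.8% to 41.9% of the counts of the 3 chains in Veh_N, 35.6% to 36.1% in Veh_LPS and 37.0% to 37.2% in D2HG_LPS. C1qb made up 51.4% to 52.6%, 56.5% to 57.1% and 54.5% to 54.8%. C1qa made up 6.33% to 6.84%, 7.32% to 7.81% and 8.01% to 8.54%. The groups did not overlap for any of the 3 chains, but the shares are parts of the same total and depend on each other. How often such shares of other genes lie apart between these groups was not counted, so nothing is read from the separation. Per length of transcript the mean shares in Veh_N were 7.14% for C1qa, 53.9% for C1qb and 39.0% for C1qc, against 8.09%, 58.5% and 33.4% in Veh_LPS. C1qa was thus the least abundant chain on either scale.

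The ratio of C1qc to C1qb counts was 0.777 to 0.813 in Veh_N, 0.623 to 0.638 in Veh_LPS and 0.676 to 0.680 in D2HG_LPS. In log2 the mean fell by 0.34 with LPS, and it was 0.10 higher with ester and LPS than with LPS. Each of these differences had an exact permutation p of 0.1 (two-sided), the smallest that 3 against 3 libraries can give. The ratio of C1qc to C1qa was 6.11 to 6.62 in Veh_N and 4.57 to 4.94 in Veh_LPS (exact p = 0.1), and with ester and LPS it was 4.33 to 4.65, which overlaps Veh_LPS (exact p = 0.2). C1qa to C1qb was 0.122 to 0.133 in Veh_N, 0.129 to 0.138 in Veh_LPS (exact p = 0.3) and 0.146 to 0.157 in D2HG_LPS (exact p = 0.1 against Veh_LPS). Over the 12 quotient tests, a p of 0.1 became 0.133 after Benjamini-Hochberg adjustment, so no quotient could pass 0.05 in this design. C1qb, C1qc and C1qa lie next to each other on chromosome 4, with 3600 and 2979 bases between them, and their counts are separate rows.

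**Figure D3:**
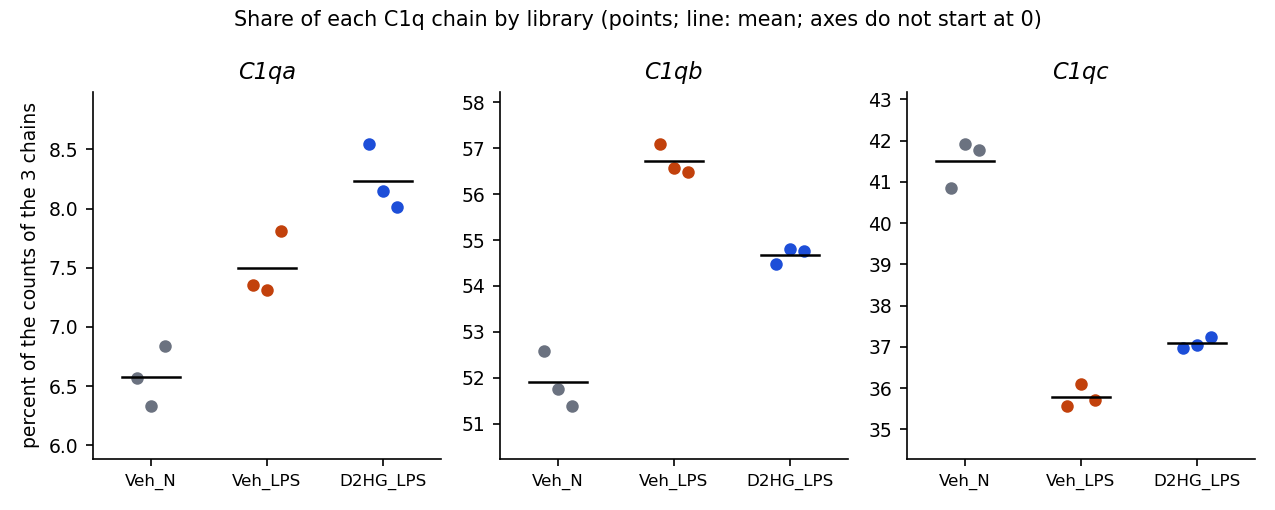
Share of each C1q chain in the summed counts of C1qa, C1qb and C1qc (y axes, percent, not from 0) in each library (points) with the group mean (line). C1qc lies at 40.8% to 41.9% in Veh_N and at 35.6% to 36.1% in Veh_LPS, and the 3 groups do not overlap for any chain. How often shares of other genes separate in this way was not counted.

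C1ra, the gene of the protease that C1q switches on, rose 6.08-fold with LPS. It stood at 2.76, 3.02 and 3.06 CPM in Veh_N and at 17.8, 20.2 and 16.1 CPM in Veh_LPS. The groups lay apart, and the log2 fold change was 2.61 ± 0.14 (edgeR adjusted p = 3.26e-09). With ester and LPS it stood at 16.7, 18.2 and 15.5 CPM, which overlaps Veh_LPS (log2 fold change -0.10 ± 0.12, edgeR adjusted p = 0.755). Per kilobase, C1ra was at 6.04 CPM in Veh_LPS, below each of the C1q chains, of which C1qa had the lowest level at 164. C1ra has a near-identical copy, C1rb, with 0 to 2 counts per library, so reads of the pair may be shared and the C1ra value is uncertain to that extent.

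C1s1, which encodes the partner protease of C1r and lies 6903 bases from C1ra, was too low to test. It had 0 to 1 counts in Veh_N, 7 to 11 in Veh_LPS and 2 to 10 in D2HG_LPS. The ratio of summed counts with LPS was 19.9 (exact interval 5.03 to 173), and with the ester it was 0.758 (0.413 to 1.37). The ester interval includes 1.

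Serping1 did not reach the filter on low counts and has no test in the main fit. It had 0, 1 and 0 counts in Veh_N, 9, 8 and 9 counts in Veh_LPS and 0, 6 and 3 counts in D2HG_LPS. Each Veh_LPS library was above each library of the other groups. The ratio of summed counts was 37.0 with LPS (exact interval 6.08 to 1518) and 0.334 with the ester (0.138 to 0.736), for counting error only. When no filter was applied, Serping1 was called higher with LPS, at a log2 fold change of 4.68. In that fit 4236 of 16158 genes were called higher with LPS. The ester difference of Serping1 was not called (edgeR adjusted p = 0.335). No more is read from its 3 ester libraries.

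Of the 7 tested genes without Ptx3, LPS raised C3, Cfb and C1ra and lowered none, and 4 did not pass. Over all tested genes 35% were called higher and 38.9% lower, so a count of 3 in 7 is near the background. The median log2 fold change was 0.14 for the 7 genes and -0.07 for all tested genes. With the ester, 0 of 7 were called by edgeR against 2.11% of all genes, 1 had an unadjusted p under 0.05 (Cfb), DESeq2 called 1 and limma-voom called 0. The median was -0.08 for the 7 genes and 0.01 for all genes.

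The D2HG_LPS and Veh_N groups differ in ester and LPS together, and this comparison shares its libraries with the other 2. C3, Cfb and C1ra were higher in D2HG_LPS by 6.42 ± 0.18, 6.96 ± 0.15 and 2.51 ± 0.14 on the log2 scale (edgeR adjusted p = 5.79e-12, 5.79e-13 and 5.24e-09). Against Veh_N, Ptx3 was at 5.50 ± 0.61 in this comparison and at 7.58 ± 0.46 with LPS and no ester. Cfp, C1qa, C1qb and C1qc were not called, at 0.09, 0.25, 0.01 and -0.23, and with library totals alone all 4 were called lower. Of all tested genes, 35.4% were called higher and 37.2% lower here with TMM scaling. With library totals alone, 2178 of the 11622 tested genes were called higher and 7283 lower.

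By level per kilobase, the order in Veh_N was C1qb (1120 CPM), C1qc (812), Cfp (379), C1qa (149), C3 (4.93), C1ra (0.988) and Cfb (0.486). In Veh_LPS it was C1qb (1192), C1qc (680), C3 (510), Cfp (389), C1qa (164), Cfb (77.2), C1ra (6.04) and Ptx3 (3.33). In Veh_LPS the libraries of C1qc and C3 overlapped on this scale, and the other neighbours in these 2 orders did not. C3 thus moved from far below properdin to above it, and Cfb from the lowest of the 7 to a level between C1qa and C1ra. In D2HG_LPS the levels were 1127 for C1qb, 691 for C1qc, 424 for C3, 404 for Cfp, 178 for C1qa, 62 for Cfb, 5.63 for C1ra and 0.780 for Ptx3, the same order as with LPS, with C3 and Cfp overlapping.

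The wider complement system was measured through a list of 58 genes, which includes the 8 complement genes above. Of the 58, 40 had counts and 22 were tested, and 7 of the 22 are genes already described. With LPS 7 of the 22 were called higher and 7 lower, near the 35% and 38.9% of all tested genes. The median log2 fold change was 0.04. The 7 called higher include C3, Cfb and C1ra. Upper-quartile scaling gave 5 higher and 11 lower, and library totals gave 3 higher (C3, Cfb and C1ra) and 16 lower. Of all 11622 tested genes, upper-quartile scaling called 2956 higher and 5960 lower, and library totals 2112 and 7589. The pathway counts thus moved in the same direction as those of all genes. With the ester, edgeR called 0 of the 22, against 2.11% of all tested genes, so fewer than 1 call would match that rate. Of the 22, 2 had an unadjusted p under 0.05 (Cfb and C5ar1), DESeq2 called 2 and limma-voom 0, and the median was -0.03. For the terminal components, which form the membrane attack complex, 5 of 7 were at 0 counts in the 9 libraries and none was deep enough to test. Hc, which encodes C5, had at most 4 counts in a library. C8g had 14, 11 and 8 counts in Veh_N, 3, 1 and 0 in Veh_LPS and 3, 6 and 3 in D2HG_LPS.

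Among recognition genes other than the C1q chains and C1ra, Masp2, a protease of the lectin pathway, fell with LPS by a log2 fold change of -1.78 ± 0.31 (edgeR adjusted p = 0.000202). It went from 3.24, 3.79 and 2.19 CPM to 0.988, 0.637 and 1.05 CPM. The lectin Fcna was not called (-0.09 ± 0.17, edgeR adjusted p = 0.662). C4b, a component of the classical convertase, was not called either (-0.05 ± 0.31, edgeR adjusted p = 0.902), and it shares near-identical sequence with C4a, so its counts are uncertain.

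Regulators of complement were called in both directions with LPS, though C1qbp and Cr1l, the 2 called higher, lay below 0 with library totals. C1qbp, a C1q-binding protein, was called higher at 0.24 ± 0.09 (edgeR adjusted p = 0.0331), but it lay at -0.077 under upper-quartile scaling and -0.43 with library totals. The C1qbp call was also lost without the filter (0.0507), without Veh_LPS replicate 2 (0.148) and without Veh_N replicate 2 (0.0588) or 3 (0.0654), with adjusted p between 0.00122 and 0.486 over the alternatives. On the membrane, Cr1l, which encodes the rodent regulator Crry, was called higher at 0.56 ± 0.08 (edgeR adjusted p = 2.40e-05), with -0.11 under library totals. Cd59a, an inhibitor of the membrane attack complex, was called lower at -0.59 ± 0.25 (edgeR adjusted p = 0.0441), a call lost with DESeq2 (0.0765), limma-voom (0.0643) and without 6 of the 9 libraries in turn, with adjusted p between 0.000375 and 0.165 over the alternatives.

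Complement receptor genes were called in both directions with TMM scaling, but with library totals none was called higher. The receptor gene of the C5a fragment, C5ar1, went from 354, 345 and 322 CPM to 495, 521 and 497 CPM, a log2 fold change of 0.57 ± 0.07 (edgeR adjusted p = 9.62e-06) that became -0.10 with library totals. Its homologue C5ar2 went from 10.9, 10.02 and 11.8 CPM to 1.48, 1.59 and 2.36 CPM (-2.56 ± 0.19, edgeR adjusted p = 6.80e-08). The integrin chain gene Itgax fell by 0.62 ± 0.09 on the log2 scale (edgeR adjusted p = 6.47e-05). Another 3 receptor genes were called and are named after their values were seen, C3ar1 higher (0.36) and Itgam (-0.23) and Cd93 (-0.75) lower. C3ar1 was not called with upper-quartile scaling (0.041) and was called lower with library totals (-0.31). The C3ar1 call was also lost without Veh_LPS replicate 3 and without Veh_N replicate 2 or 3, and the Itgam call was lost with RLE scaling, DESeq2, the fit of 2 groups and without replicate 1 or 2 of either group. With the ester, C5ar1 stood at 425, 398 and 420 CPM, below each Veh_LPS library. The rate of such separation over all tested genes was not counted. The log2 fold change of C5ar1 was -0.28 ± 0.07 and was not called (edgeR adjusted p = 0.0622). It was called with RLE scaling (0.0349), with DESeq2 (0.00038), in the fit of 2 groups (0.0278) and without Veh_N replicate 1 (0.0304) or 3 (0.0299), and its adjusted p ran from 0.00038 to 0.204.

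**Figure D4:**
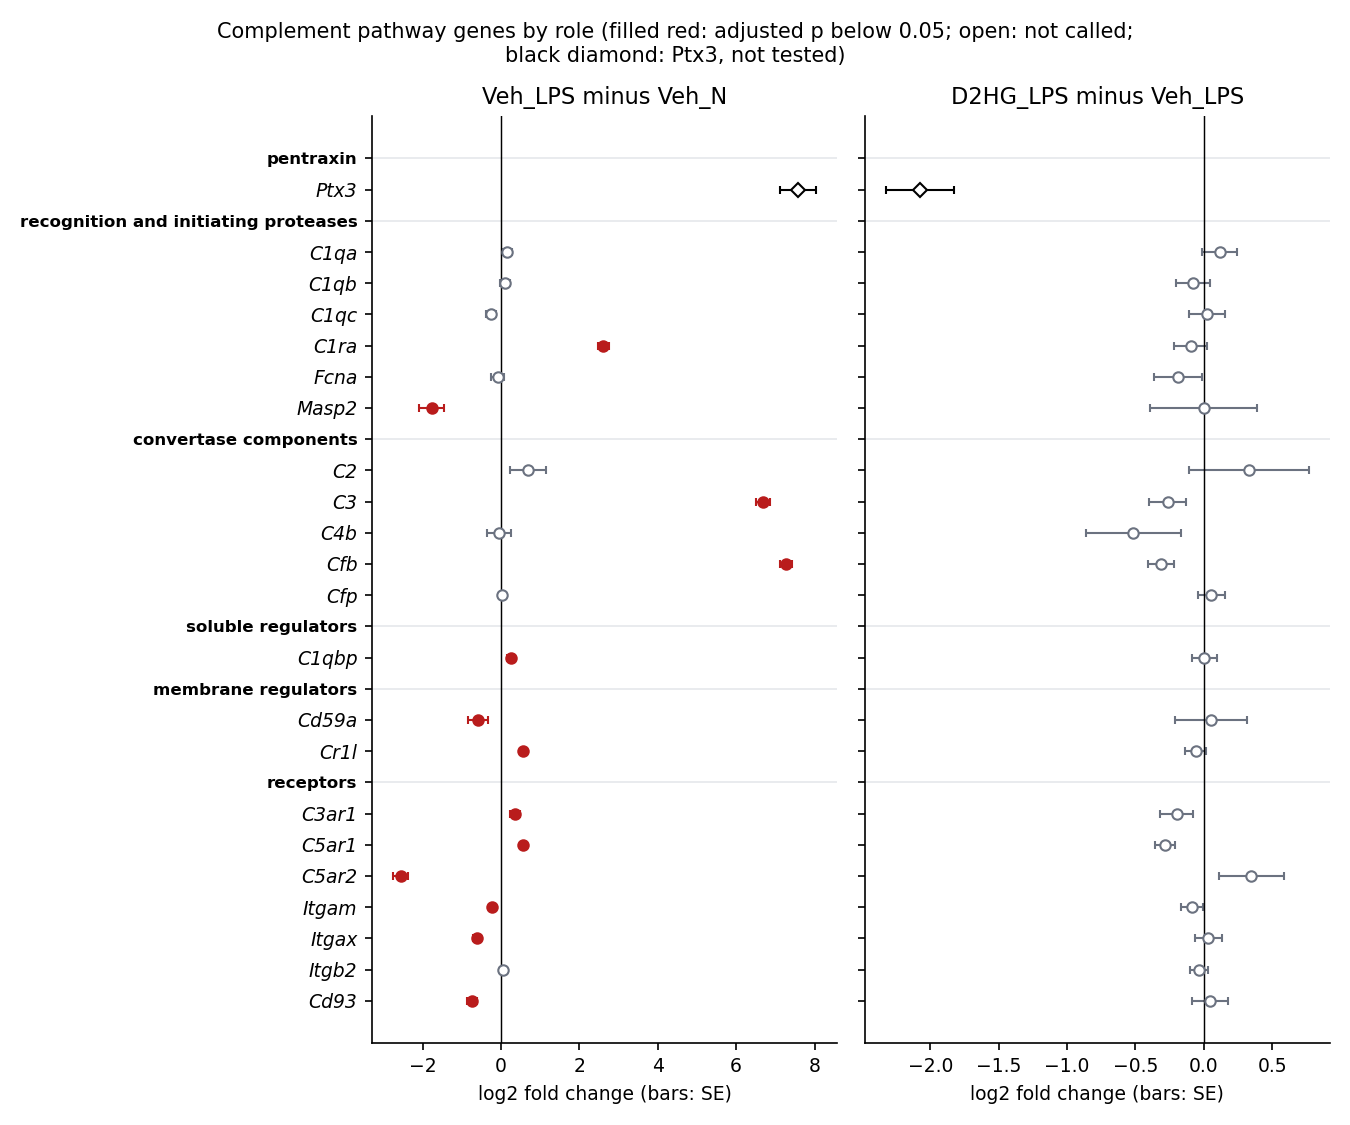
Log2 fold change (x axes, bars SE, on different scales) of Ptx3 and tested complement genes, by role, for Veh_LPS over Veh_N (left) and D2HG_LPS over Veh_LPS (right), where filled red points passed an edgeR adjusted p of 0.05. With LPS 7 of these genes were called higher, of which C1qbp, Cr1l, C3ar1 and C5ar1 lie below 0 under library totals, and with the ester none of those plotted is called.

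Of the other pentraxins, the short ones that the liver makes were nearly absent, with Crp at 0 to 3 counts per library and Apcs at 0. The neuronal pentraxin genes Nptx1 and Nptxr were the 2 that could be tested, and they are named after their values were seen. Nptx1 went from 5.03, 3.74 and 2.51 CPM in Veh_N to 13.4, 11.99 and 13.1 CPM in Veh_LPS and stood at 13.4, 12.5 and 10.5 CPM in D2HG_LPS. It was called higher with LPS (1.76 ± 0.20, edgeR adjusted p = 4.35e-06) and not called with the ester (-0.09, edgeR adjusted p = 0.863). Nptxr was called lower with LPS (-0.46, edgeR adjusted p = 0.0331), a call lost with DESeq2, RLE scaling and without any 1 of the Veh_N libraries. Of 10 genes whose products bind pentraxin 3 or build the hyaluronan matrix with it, such as Tnfaip6, 6 had counts and none was deep enough to test.

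The genes with the pattern closest to 4 of the members were ranked by the root mean square difference of centred log2 CPM over the 9 libraries, among 7984 or 7985 genes, as a description. For Ptx3 they were Gpr85, an orphan receptor, at 0.541 (log2 fold change 4.06 with LPS and -0.90 with the ester), Fgl2 at 0.545 (4.47 and -0.70) and the chemokine Ccl8 at 0.576 (5.01 and -0.84). None of these 3 had an ester difference as large as that of Ptx3, but Ptx3 was picked on that difference. The genes compared had a mean log2 CPM of at least 3, a level that Ptx3 itself did not reach. For C3 they were Gbp2 at 0.134, Enpp4 at 0.151 and Slc7a2 at 0.155. For C1qa they were Aamp at 0.0440, Fkbp8 at 0.0501 and Lgals3 at 0.0516, and for Cfp BC004004 at 0.0276, Ppp1ca at 0.0363 and Idh2 at 0.0429. C1qa and Cfp varied little over the libraries, and the genes nearest to them did too.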

How the data were processed

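RNA was measured in 9 libraries of cultured mouse macrophages, grouped by title and treatment. RNeasy extraction and the stranded KAPA mRNA HyperPrep kit were used, per the labels' protocols. Per the submitters' processing notes, STAR 2.5.2b and DESeq2 were used, with builds mm10 and mm9 named without a role. Which program, annotation and strand setting gave the counts is not stated in these sources. The authors deposited raw read counts for 35745 RefSeq transcripts. Of these, 35440 were matched to symbols by a RefSeq gene table (GRCm38.p6) and 188 by GENCODE vM21. The 117 unmatched rows held 0.676% to 2.37% of a library's counts and were left out.

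For each gene the transcript with most counts was taken. Counts were scaled by TMM, filtered by filterByExpr and fitted with edgeR 4.0.16 in R 4.3.3 (glmQLFit, robust, group as the only term, 9 libraries), tested two-sided with glmQLFTest and adjusted by Benjamini-Hochberg over 11622 genes, with calls at an adjusted p below 0.05. An SE is the log2 fold change divided by the root of F. Veh_N had TMM factors of 1.338 to 1.351, and the 6 LPS libraries had 0.831 to 0.887. Low counts were given exact 95% binomial intervals, which cover counting error only. Replicates differed by more than counting noise (chi-square per degree of freedom 2.78 to 23.7). Alternatives were other scalings, no filter, DESeq2 1.42.0, limma-voom (limma 3.58.1), summed transcripts, a replicate block, fits of 2 groups and each library left out.

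The members, gene lists and motifs were chosen with earlier results of these data known. The text names the 9 members, pathway and pentraxin genes called with the ester (there were 0), up to 3 other genes per role by smallest p with LPS, and the 3 genes nearest in pattern to Ptx3, C3, C1qa and Cfp (mean log2 CPM at least 3). Ptx3 has no test because it was picked on its ester difference, and the other comparisons share libraries with it. A gene that the rule names is not reported here.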

Additional observations from a re-analysis of the deposited data

How the results depend on the processing

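C3, Cfb and C1ra stayed called higher with LPS under each of the 18 alternatives run. For LPS over vehicle, 5 of the 7 complement genes were called with upper-quartile scaling and 7 with library totals, against 3. Those calls were 3 higher and 2 lower, and 3 higher and 4 lower. Over all tested genes, the same scalings called 8916 and 9701 of 11622, against 8587. For ester and LPS over vehicle, library totals called 7 of 7 and 20 of 22 pathway genes, against 3 and 12. There 4 of the 7 and 17 of the 22 were called lower. Library totals called 9461 of all tested genes in this comparison, against 8435. For the ester, genes called went from 245 to 509 (DESeq2), 450 (fit of 2 groups) and 64 to 501 with 1 library left out, lowest without D2HG_LPS replicate 1 and highest without Veh_N replicate 1. Of the complement genes 1 was called by DESeq2 and in the fit of 2 groups, and 0 to 1 with a library left out. Of the pathway genes 1 was called with RLE scaling, 2 by DESeq2, 2 in the fit of 2 groups and 0 to 2 with a library left out. Of the calls with the ester, 54.7% were higher, against 40.8% with RLE scaling and 74.4% with library totals.

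Signs turned for 7 genes among values called under the main or the other setting. With upper-quartile scaling, LPS gave -0.29 for Cfp and -0.077 for C1qbp, and ester and LPS over vehicle gave -0.049 for C1qbp and -0.013 for C5ar1. With library totals, LPS gave -0.63 for Cfp, -0.53 for C1qa, -0.58 for C1qb, -0.43 for C1qbp, -0.11 for Cr1l and -0.10 for C5ar1. Library totals gave -0.52, -0.35, -0.60, -0.36, -0.10 and -0.32 for the same genes with ester and LPS over vehicle. For C3ar1 library totals gave -0.31 with LPS and -0.45 with ester and LPS over vehicle. A further 51 sign changes in 15 genes concerned values not called under either setting. The cause was not tested.

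Whether libraries of the same replicate number were paired is not stated in the labels. Deviations from the group mean correlated at -0.43 to 0.18 for same-numbered libraries and at -0.36 to 0.50 for others. With 3 libraries per group these correlations cannot decide whether the libraries were paired. With the replicate block 93 genes were called with the ester, and the complement genes called stayed at 3, 0 and 3 in the 3 comparisons. Depth limits the LPS contrast of Ptx3, Serping1 and C1s1, whose Veh_N counts were 0 or 1 per library.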
